A study of Mus musculus with 23 samples.

Results

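Toll-like receptor 7 and the endosomal Toll-like receptor pathway were followed through 8 genes of mouse hippocampus: Tlr7, Tlr3, Unc93b1, Myd88, Irak1, Irak4, Traf6 and Irf5. The genes were taken by symbol from a table of 13766 genes, and all 8 were found, each in a single row. Tlr7 was higher in every library from an XY mouse than in every library from an XX mouse, whichever gonad the animal had. It was the only gene of the 8 to pass the test in any of 7 comparisons.

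Endosomal Toll-like receptors are sensors of the innate immune system that read nucleic acids inside the cell. Tlr7 binds single-stranded RNA and Tlr3 double-stranded RNA, and the chaperone Unc93b1 carries both from the endoplasmic reticulum to endosomes, where proteases trim the receptors into their active form. Tlr7 signals through the adaptor Myd88, which assembles the kinases Irak4 and Irak1 and the ubiquitin ligase Traf6, and the chain ends in NF-kappaB and in interferon regulatory factors such as Irf5 and Irf7. Tlr3 signals through another adaptor, Ticam1 (TRIF). In the brain these receptors are best known from microglia, the resident macrophages, and Tlr3 also from astrocytes. Tlr7 lies on the X chromosome and is known for its part in lupus-like autoimmunity, where its dose matters.

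The 23 libraries came from hippocampi of FCG (core genotypes) mice of the C57Bl/6J strain, an animal per library, collected at about 12 months of age. The Y chromosome of these mice lacks Sry, the gene that starts testis development, and a Sry transgene sits on an autosome, so that gonad and sex chromosomes are inherited apart. XXF denotes 5 XX mice with ovaries, XXM denotes 6 XX mice with testes, XYF denotes 6 XY mice with ovaries, and XYM denotes 6 XY mice with testes. Animals with testes thus carried the Sry transgene, and both XY groups carried a Y chromosome without Sry. The colony came from the Jackson Laboratory, where it had been revived from frozen embryos, and no treatment is named. Pups were caged by the appearance of their genitalia, so cage type and gonad cannot be told apart. In some stocks of this model a distal piece of the X chromosome has been reported on the Y chromosome; its presence in these animals was not tested.

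Library totals over the listed genes ran from 10257751 to 36078221 estimated counts. No pair of libraries in a group agreed to within sampling noise. Xist, the RNA of the inactive X chromosome, stood at 936 to 1468 CPM (estimated counts scaled to library size) in XX libraries and at no more than 2.87 CPM in XY libraries, except for XYF replicate 4 at 94.1 CPM. Levels of Ddx3y, Eif2s3y, Kdm5d and Uty, all on the Y chromosome, matched the label of every library. All 6 hippocampal markers (Prox1, Wfs1, Zbtb20, Neurod6, C1ql2 and Pou3f1) were measured, with a sum between 469 and 608 CPM. The sum of 9 choroid plexus markers, genes of the tissue next to the hippocampus, ranged from 286 to 5803 CPM and the highest library of each group stood at 3290 CPM or more. The groups were not even: the median of this sum was 3656 CPM in XXM, against 376 in XXF, 337 in XYF and 397 in XYM.

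Per kilobase of exon, Irak1 had the highest mean level of the 8 genes, at 14.8 ± 1.08 CPM per kb (SD, n = 23). Unc93b1 followed at 5.07 ± 0.549, Tlr3 at 3.61 ± 0.406, Traf6 at 3.57 ± 0.302 and Myd88 at 2.48 ± 0.431 CPM per kb. The lowest were Tlr7 at 1.53 ± 0.619, Irf5 at 1.48 ± 0.195 and Irak4 at 0.315 ± 0.0754 CPM per kb. Tlr3 and Traf6 did not differ beyond their spread, nor did Tlr7 and Irf5. The receptor and its last factor were therefore measured from few reads: Tlr7 rested on 39 to 233 estimated counts per library, Irf5 on 38 to 177 and Irak4 on 13 to 64.3.

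Tlr7 (gene 170743, X chromosome, chrX:167304931-167330528, minus strand, mm10) was measured at 3.11, 3.84, 4.50, 3.61 and 3.62 CPM in the 5 XXF libraries. In XXM its lowest, median and highest levels were 3.42, 4.18 and 5.35 CPM, in XYF 6.87, 8.87 and 11.1 CPM, and in XYM 6.39, 7.22 and 10.7 CPM. All 12 XY libraries lay above the highest of the 11 XX libraries, while XXF overlapped XXM and XYF overlapped XYM. The group means were 8.88 ± 1.52 CPM in XYF, 7.78 ± 1.63 in XYM, 4.20 ± 0.685 in XXM (each SD, n = 6) and 3.74 ± 0.502 in XXF (SD, n = 5). In that order only the step from XYM to XXM exceeded the spread of the libraries.

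**Figure D1:**
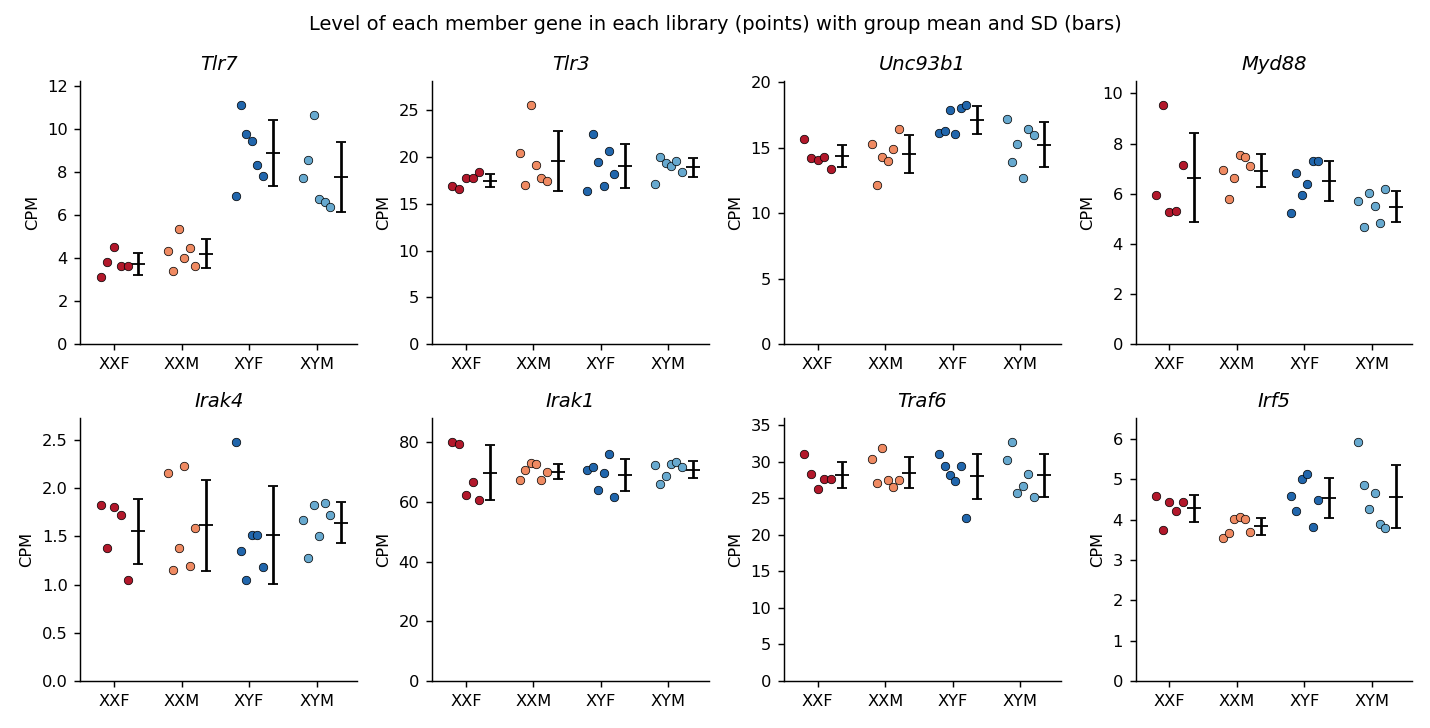
Level in CPM (vertical axis, from 0) of each of the 8 genes in each library (points) by group, with the group mean and SD beside the points. For Tlr7 the XY libraries, from 6.39 CPM up, sit above all XX libraries, which reach 5.35 CPM. For the other genes the points of all XX and all XY libraries overlap, though for Unc93b1 XYF lies above XXF.

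For Tlr7 the sex chromosome effect, the mean of the XY minus XX differences with ovaries and with testes, was 1.07 ± 0.106 log2 units (SE, 95% interval 0.85 to 1.28, adjusted p = 2.79e-07), a fold of 2.09. Tlr7 was the 1 of 8 members called, at an adjusted p under 0.05, where 0.283% of all genes were called (39 of 13766). The direction for Tlr7 was known when the 8 genes were chosen. In mice with ovaries Tlr7 was 1.25 ± 0.157 higher in XY (adjusted p = 2.58e-05), and 0.291% of all genes were called in that comparison. In mice with testes it was 0.88 ± 0.142 higher (adjusted p = 0.00153), with 0.116% of all genes called.

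The gonad did not move Tlr7 past the test. The gonad effect, the mean of the testes minus ovaries differences in XX and in XY, was -0.01 ± 0.106 (95% interval -0.23 to 0.21, adjusted p = 0.983). The difference between the 2 sex chromosome effects, the interaction, was -0.37 ± 0.21 (95% interval -0.80 to 0.07, adjusted p = 0.999). No gene of the table passed the test of the interaction (0% called, 444 at an unadjusted p under 0.05, 0 also in DESeq2 and both limma fits), so the larger fold with ovaries is not shown to differ from that with testes. With a microglia marker score in the fit the interaction for Tlr7 was -0.14.

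Microglia are a known source of Tlr7 message in brain, and their markers were read alongside. All 20 microglial markers were measured and none passed the test of the sex chromosome effect, where 0.283% of all genes passed. Their median effect was 0.07 log2 units. Their summed level was 753 to 838 CPM in XXF, 730 to 870 in XXM, 798 to 1029 in XYF and 718 to 906 in XYM. With the microglia score as a covariate the sex chromosome effect on Tlr7 was 1.03 (adjusted p = 4.57e-08), with the choroid plexus score it was 1.08 (adjusted p = 4.29e-07), and without XYF replicate 4 it was 1.06 (adjusted p = 8.76e-07). Of 7 border macrophage markers the 3 measured summed to 2.76 to 10.95 CPM, and none passed the test. None of the 4 B cell and 4 T cell markers listed was among the measured genes. Of 5 monocyte and neutrophil markers the 1 measured, Ly6c2, reached at most 2.53 CPM. In RNA from whole tissue, fewer cells of a type and less RNA per cell cannot be told apart.

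The genes listed as lying near Tlr7 at the distal end of the X chromosome moved with it. The list was chosen with earlier results of these data known. Besides Tlr7 itself, Msl3, Frmpd4, Arhgap6, Hccs, Prps2 and Tmsb4x were measured. All 6 rose in XY with log2 effects between 0.64 (Tmsb4x) and 0.95 (Msl3), and all 6 were called. Over all genes 0.283% were called. Arhgap6 was called in neither comparison of XY with XX within a gonad type (adjusted p = 0.0794 with ovaries and 0.865 with testes). For Arhgap6 and Tmsb4x the XX and XY libraries overlapped. Hccs, which attaches haem to cytochrome c, was also the gene of the table whose level over the 23 libraries was most like that of Tlr7 (Pearson r = 0.945, across all libraries and so including the group difference). Ddx3y (0.927), Msl3 (0.92), Uty (0.915) and Kdm5d (0.913) followed. The likeness is a description, and the libraries share the XX and XY difference that sets it. Irak1, the other X-linked gene of the 8 (chrX:74013914-74023921), did not share the shift, as given with the kinases.

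Among the receptors, Tlr3 (chr8:45395665-45410539) showed no comparable shift. It was measured at 16.6 to 18.4 CPM in XXF, 16.99 to 25.6 in XXM, 16.4 to 22.5 in XYF and 17.1 to 20.04 in XYM, and all 4 ranges overlapped. Its sex chromosome effect was 0.03 ± 0.066 (95% interval -0.10 to 0.17, adjusted p = 0.967), and its gonad effect was 0.08 ± 0.066 (95% interval -0.06 to 0.21, adjusted p = 0.635). The 7 astrocyte markers, genes of the other cell type known for Tlr3, summed to 4506 to 5710 CPM over all libraries. The other endosomal receptors measured were Tlr9, a sensor of unmethylated DNA, and Tlr13, a sensor of bacterial ribosomal RNA. Their sex chromosome effects were 0.28 ± 0.136 for Tlr9 (adjusted p = 0.735) and 0.23 ± 0.119 for Tlr13 (adjusted p = 0.76). Thus 1 of 4 measured endosomal receptors passed the test, where 0.283% of all genes did. Tlr8, the neighbour of Tlr7, was not among the measured genes.

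Unc93b1 (chr19:3935186-3949340), the chaperone that Tlr3 and Tlr7 share, had the smallest adjusted p after Tlr7 among the 8 in the sex chromosome effect. It was measured at 15.7, 14.3, 14.1, 14.3 and 13.4 CPM in XXF. Its lowest, median and highest levels were 12.2, 14.6 and 16.4 CPM in XXM, 16.1, 17.1 and 18.3 in XYF, and 12.7, 15.7 and 17.2 in XYM. The XYF libraries lay above all XXF libraries and overlapped both groups with testes. The difference between XYF and XXF was 0.25 ± 0.0856 (95% interval 0.08 to 0.43, unadjusted p = 0.00638, adjusted p = 0.567), and the sex chromosome effect was 0.16 ± 0.0585 (adjusted p = 0.522), so neither passed the test over all genes.

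Of 11 measured genes of receptor trafficking, folding and processing, Ctss alone passed a test, in XYF against XXF. Ctss encodes cathepsin S, a lysosomal protease abundant in microglia and counted among those that process endosomal receptors. It was measured at 83.6, 83.6, 93.1, 87.1 and 80.5 CPM in XXF, and its lowest, median and highest levels were 76.6, 87.9 and 97.8 CPM in XXM, 98.8, 116.6 and 155.4 in XYF, and 79.2, 91.3 and 117.5 in XYM. Every XYF library lay above every XX library, and XYM overlapped all other groups.

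Ctss was 0.53 ± 0.107 higher in XYF than in XXF (adjusted p = 0.015). The call was lost with limma on the deposited log2 values (adjusted p = 0.0547) and without XXF replicate 1, 2 or 5 or XYF replicate 2 or 3 (adjusted p from 0.0504 to 0.0612). Its sex chromosome effect of 0.33 ± 0.0732 missed the threshold (adjusted p = 0.0509) and passed it in DESeq2 (0.00312), with total count scaling (0.0357) and with the microglia score as a covariate (2.97e-06). It also passed without any 1 of XXM replicates 3 and 6, XYF replicates 1, 4 and 5, and XYM replicates 5 and 6 (adjusted p from 0.0123 to 0.0487). Between XYM and XYF the difference of Ctss was -0.39 ± 0.1 (adjusted p = 0.177), which passed in DESeq2 (0.0415) and without XYF replicate 1 (0.0455) or XYM replicate 3 (0.0429), and was -0.08 with the microglia score in the fit (adjusted p = 0.804). Ctss is itself 1 of the 20 microglial markers, and their median difference between XYF and XXF was 0.13 log2 units. With the microglia score in the fit, its difference between XYF and XXF was 0.33 (adjusted p = 0.000382) and that between XYM and XXM 0.23 (adjusted p = 0.0201, against 0.12 and 0.966 without the score).

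The nucleic acid handling genes of the endosome, Pld3, Pld4, Rnaset2a and Dnase2a, held no called gene. Pld4, an exonuclease that degrades single-stranded nucleic acids in endosomes, had a sex chromosome effect of 0.18 ± 0.0823 (adjusted p = 0.696). Lrrc59, a membrane protein of the endoplasmic reticulum that helps to load the receptors for transport, had an effect of -0.08 ± 0.0333 (adjusted p = 0.632). Neither effect passed the test.

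Myd88 (chr9:119335988-119340040), the adaptor of Tlr7, was measured at 5.95, 9.54, 5.26, 5.31 and 7.16 CPM in XXF. Its lowest, median and highest levels were 5.78, 7.03 and 7.55 CPM in XXM, 5.24, 6.60 and 7.32 in XYF, and 4.67, 5.6 and 6.18 in XYM. XYM held the lowest library and overlapped every other group. The sex chromosome effect was -0.17 ± 0.095 (adjusted p = 0.825), and the difference between XYM and XXM was -0.33 ± 0.129 (95% interval -0.59 to -0.06, unadjusted p = 0.0184, adjusted p = 0.921). The other measured adaptors, Ticam1 and Tirap, had effects of -0.02 ± 0.0777 and -0.08 ± 0.107 and did not pass the test.

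The kinases and the ligase below Myd88 held no called gene. Irak1 ranged from 60.5 to 80.2 CPM over all libraries, with a sex chromosome effect of -0.000603 ± 0.0468 and a 95% interval of -0.10 to 0.10. Traf6 (chr2:101678440-101700974) ranged from 22.3 to 32.7 CPM, with an effect of -0.02 ± 0.056 and an interval of -0.13 to 0.10. Irak4 (chr15:94543660-94568316), the kinase that starts the cascade, ranged from 1.04 to 2.48 CPM with an effect of -0.01 ± 0.154. Its interval of -0.33 to 0.31 was the widest of the 8 genes. None of 14 measured kinases and ligases passed the test of either main effect. Over all genes 0.283% passed that of the sex chromosomes and 0.16% that of the gonad. The sex chromosome effects of the 14 lay between -0.03 and 0.08 log2 units.

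Irf5 (chr6:29526625-29537320), a transcription factor activated below Tlr7 that drives inflammatory cytokine genes, was measured at 4.58, 3.74, 4.44, 4.22 and 4.43 CPM in XXF. Its lowest, median and highest levels were 3.54, 3.85 and 4.05 CPM in XXM, 3.83, 4.53 and 5.14 in XYF, and 3.80, 4.46 and 5.93 in XYM. XXM had the lowest median but overlapped the other 3 groups. The sex chromosome effect was 0.17 ± 0.0842 (95% interval -0.01 to 0.34, adjusted p = 0.764), and the difference between XYM and XXM was 0.25 ± 0.114 (unadjusted p = 0.0348, adjusted p = 0.93).

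Among 9 measured transcription factors of the pathway, Irf7 was the 1 that passed a test. Irf7 is the factor through which endosomal receptors switch on type I interferon genes, and it is itself induced by interferon. It was measured at 1.56, 2.07, 2.14, 3.15 and 1.77 CPM in XXF and at 1.39, 1.24, 2.29, 1.72, 2.30 and 2.20 CPM in XXM. The XYF libraries stood at 4.35, 7.71, 6.78, 6.23, 9.37 and 7.99 CPM, and the XYM libraries at 5.06, 0.896, 1.97, 1.79, 2.89 and 2.53 CPM. Every XYF library lay above every XX library, and 5 of 6 lay above all XYM libraries, of which replicate 1 was the highest.

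Irf7 was 1.69 ± 0.294 higher in XYF than in XXF (adjusted p = 0.00306), a fold of 3.23, and 1.45 ± 0.267 lower in XYM than in XYF on the log2 scale (adjusted p = 0.00853). In XYM against XXM its difference was 0.49 ± 0.277 (adjusted p = 0.936), and 0.16 without XYM replicate 1 (adjusted p = 0.996). The sex chromosome effect averaged over gonads was 1.09 ± 0.201 (adjusted p = 0.00631). The interaction was -1.21 ± 0.401 (unadjusted p = 0.00594, adjusted p = 0.999), so a difference between the 2 sex chromosome effects did not pass the test over all genes. Without XYF replicate 4 the difference between XYF and XXF was 1.72 (adjusted p = 0.00464), and without XYM replicate 1 that between XYM and XYF was -1.78 (adjusted p = 0.000123). With the microglia score in the fit the difference between XYM and XYF was -1.25 and no longer passed (adjusted p = 0.211).

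**Figure D2:**
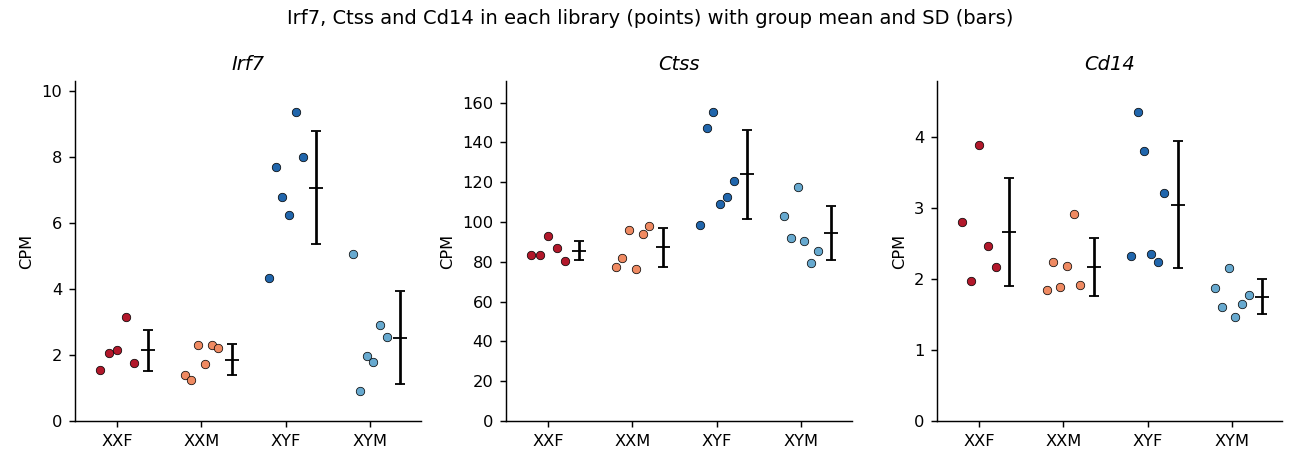
Level in CPM (vertical axis, from 0) of Irf7, Ctss and Cd14 in each library (points) by group, with the group mean and SD beside the points. All 6 XYF libraries lie above all XX libraries for Irf7 and Ctss, and above all XYM libraries for Cd14. The Cd14 difference between XYM and XYF did not pass the test (adjusted p = 0.108).

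Irf7 also belongs to the interferon response list, of which 12 of 15 genes were measured. The summed level of these 12 was 67.4 to 76.9 CPM in XXF, 59.9 to 72.4 in XXM, 100.5 to 173.3 in XYF and 62.0 to 107.9 in XYM. In XYF against XXF 8 of the 12 were called, all higher, where 0.291% of all genes were called. The median was 1.21 log2 units against 0.01 over all genes. The part of this response in the levels of Irf7 and Ctss was not tested. In XYM against XXM, where Tlr7 was called and 0.116% of all genes were, none of the 12 genes was. There, 10 of them had a difference above 0, with a median of 0.24 log2 units. In XYM against XYF 10 of the 12 were called, all lower, where 0.225% of all genes were called. In the gonad effect 6 of the 12 were called, all lower, where 0.16% of all genes were called.

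The 250 bases before the start of Ctss and Irf7 are shown because both genes were high in XYF, and that of Myd88 because, of the 6 members with such a sequence, it alone held a motif searched. All come from RefSeq (GRCm38.p6), which gave such a sequence for 6 of the 8 genes. None was available for Tlr7 and Unc93b1, so the motifs were not searched there. Capitals mark the core of the element bound by interferon-activated factors, which is GAAA, NN (any bases) and GAAA again without a break, searched on both strands. A second motif, GAGGAAGT, a site for the myeloid factor PU.1, was searched on both strands too. Both motifs were chosen after the expression values were seen.
Ctss, chr3:95526536-95526785, plus strand: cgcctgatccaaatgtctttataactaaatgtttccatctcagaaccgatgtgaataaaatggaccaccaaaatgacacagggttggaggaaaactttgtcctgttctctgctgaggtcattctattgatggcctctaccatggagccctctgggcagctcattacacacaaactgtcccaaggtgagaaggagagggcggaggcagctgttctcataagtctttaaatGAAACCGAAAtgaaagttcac
Irf7, chr7:141266425-141266674, minus strand: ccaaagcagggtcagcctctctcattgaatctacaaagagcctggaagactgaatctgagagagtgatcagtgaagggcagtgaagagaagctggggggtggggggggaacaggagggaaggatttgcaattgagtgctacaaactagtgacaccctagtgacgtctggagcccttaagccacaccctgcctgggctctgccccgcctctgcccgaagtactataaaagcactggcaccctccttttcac
Myd88, chr9:119340019-119340268, minus strand: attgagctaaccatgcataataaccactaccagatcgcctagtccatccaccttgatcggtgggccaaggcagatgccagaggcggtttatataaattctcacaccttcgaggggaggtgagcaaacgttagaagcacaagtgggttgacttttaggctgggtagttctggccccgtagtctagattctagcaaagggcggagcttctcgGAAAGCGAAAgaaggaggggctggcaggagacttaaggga

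The interferon element lay at -21 to -12 from the start of Ctss and at -40 to -31 from that of Myd88, both on the strand shown. Of all 32851 windows of this length, 978 (2.98%) held it. It was not found in the windows of Irf7, Tlr3, Irak1, Irak4, Traf6 and Irf5. GAGGAAGT was found in none of the windows of Ctss, Irf7 and the 6 members, and in 802 (2.44%) of all windows.

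The inhibitors of the pathway and the receptors of the cell surface were followed in the gonad effect. None of the 8 members was called in it, where 0.16% of all genes were called (22 of 13766), and none of the 53 measured genes of the whole pathway without surface receptors. The median effect over these 53 was -0.01 log2 units, against -0.002 over all genes. Irf7 had an effect of -0.85 ± 0.2 (adjusted p = 0.0913). That effect passed in DESeq2 (adjusted p = 0.00998), after adding the choroid plexus score to the fit (0.0174), and without XXF replicate 5 (0.0494), XYF replicate 1 (0.0417) or XYM replicate 1 (0.00371).

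Cd14, the co-receptor that hands ligands to Toll-like receptors, was measured at 2.80, 1.97, 3.89, 2.46 and 2.17 CPM in XXF. Its lowest, median and highest levels were 1.84, 2.05 and 2.92 CPM in XXM, 2.24, 2.79 and 4.35 in XYF, and 1.46, 1.71 and 2.15 in XYM. XYF lay above XYM with no overlap, while XXF and XXM overlapped. The difference between XYM and XYF was -0.80 ± 0.191 and did not pass the test (adjusted p = 0.108). Cd14 rested on 19.6 to 89.6 estimated counts per library. The gonad effect on Cd14 was -0.56 ± 0.137 (adjusted p = 0.0947). It passed in DESeq2 (adjusted p = 0.0328) and without XXF replicate 5 (0.0495). Of the 20 microglial markers 16 had a gonad effect below 0, with a median of -0.12, and none was called. With the microglia score in the fit the gonad effect was -0.35 for Cd14 (adjusted p = 0.283) and -0.75 for Irf7 (adjusted p = 0.196).

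Nfkbia, which encodes the inhibitor that holds NF-kappaB in the cytoplasm and is itself an NF-kappaB target, had a gonad effect of -0.32 ± 0.0849 (adjusted p = 0.131, and 0.0378 in DESeq2), and -0.31 with the microglia score (adjusted p = 0.212). Irf8, a transcription factor that microglia depend on, had an effect of -0.31 ± 0.0882 (adjusted p = 0.161), and -0.28 with that score (adjusted p = 0.263). Of the 8 measured inhibitors 5 had an effect below 0 and none passed. The surface receptors Tlr2 and Tlr4 were at -0.30 ± 0.168 and -0.23 ± 0.185 and did not pass either. The 11 cytokines and chemokines listed as outputs of the pathway, with Tnf, Il1b and Ifnb1, were not among the measured genes.

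**Figure D3:**
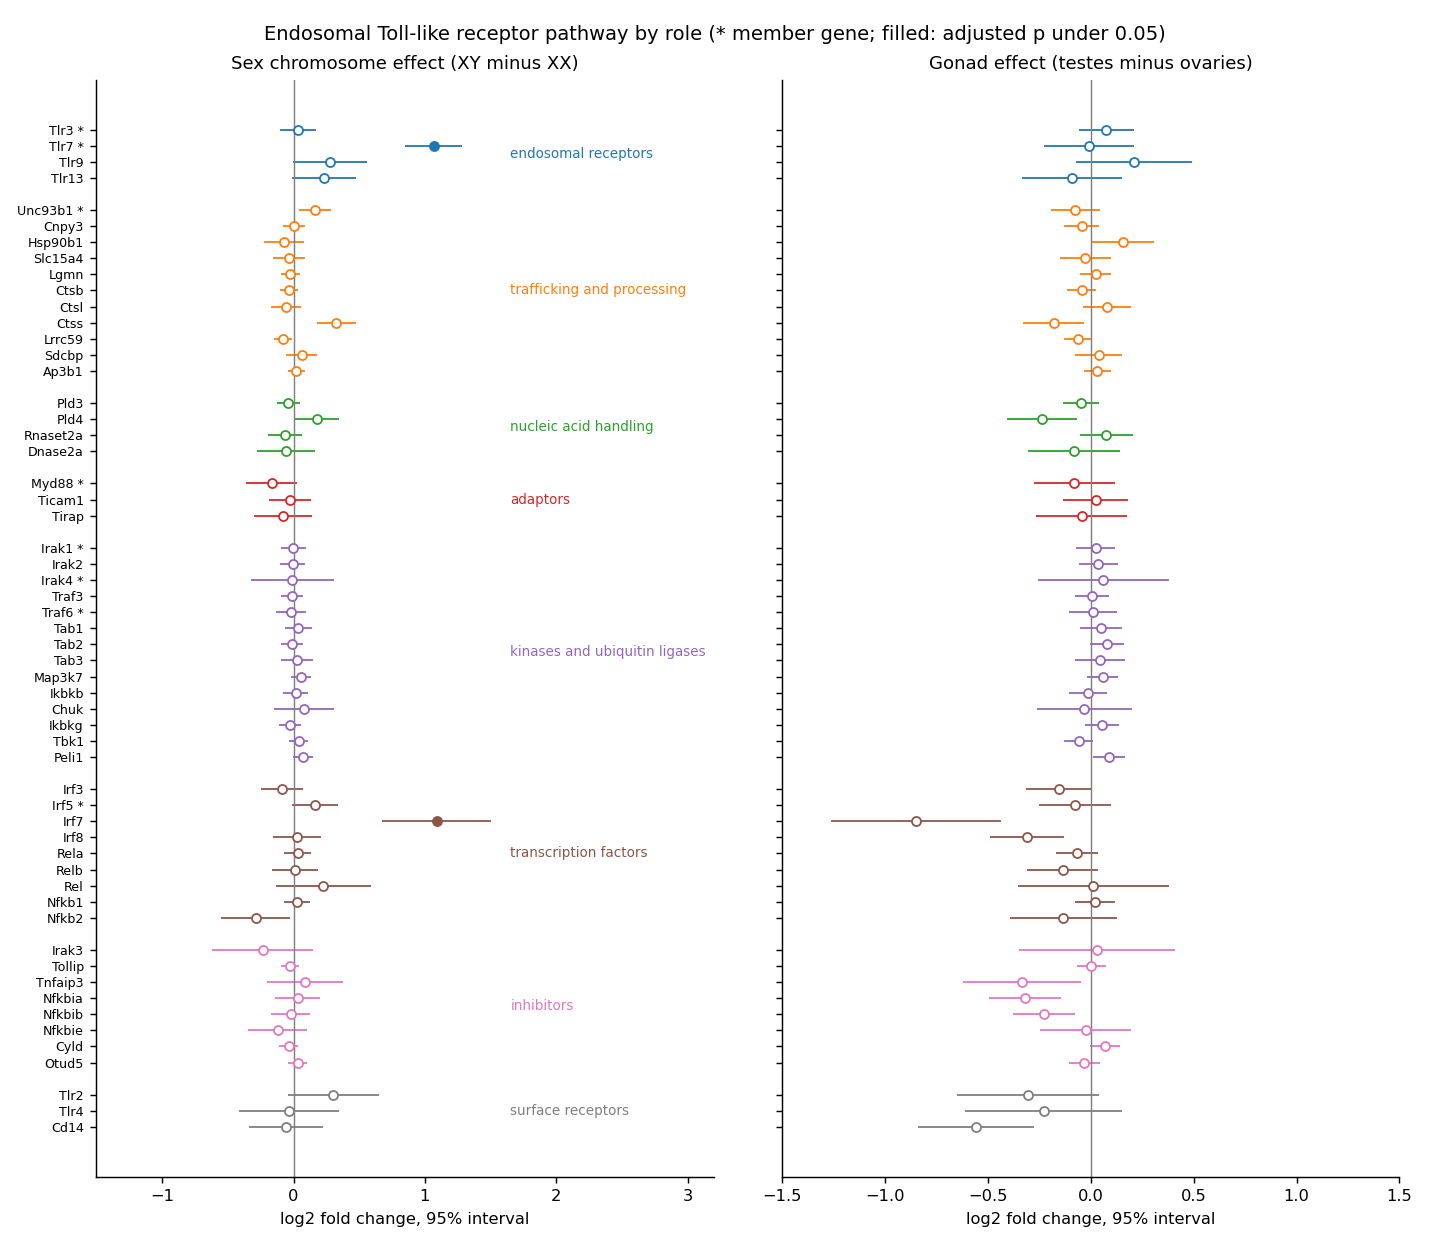
Log2 fold change with its 95% interval (horizontal axis) of each measured pathway gene, grouped by role, for the sex chromosome effect (left) and the gonad effect (right), with filled points for an adjusted p under 0.05. Tlr7 (1.07) and Irf7 (1.09) are filled on the left, and no point is filled on the right.

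Over the 53 measured pathway genes, 2 were called in the sex chromosome effect (Tlr7 and Irf7, both higher), where 0.283% of all genes were called. Of the 53 effects, 27 lay above 0 and 26 below. The median was 0.002 log2 units against 0.001 over all genes. Without Tlr7 the 7 remaining members had a median of -0.000603, with effects between -0.17 (Myd88) and 0.17 (Irf5). Nfkb2, a subunit of NF-kappaB, had the lowest effect of the 53 at -0.29 ± 0.126 (adjusted p = 0.667).

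In the comparisons of 2 groups the same few genes carried the calls. In XYF against XXF, where 0.291% of all genes were called, 3 of the 53 were called, all higher: Tlr7, Ctss and Irf7. In XYM against XXM, where 0.116% of all genes were called, the 1 called gene of the 53 was Tlr7. In XXM against XXF none was called, where 0% of all genes were called (1061 at an unadjusted p under 0.05, and 1 gene in DESeq2), and the members' differences lay between -0.17 and 0.18. In XYM against XYF none of the 8 members was called, with 0.225% of all genes called, and 1 of the 53, Irf7, was lower. Tlr7 itself differed by -0.19 ± 0.14 between XYM and XYF (adjusted p = 0.704) and by 0.18 ± 0.157 between XXM and XXF (adjusted p = 0.789).

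**Figure D4:**
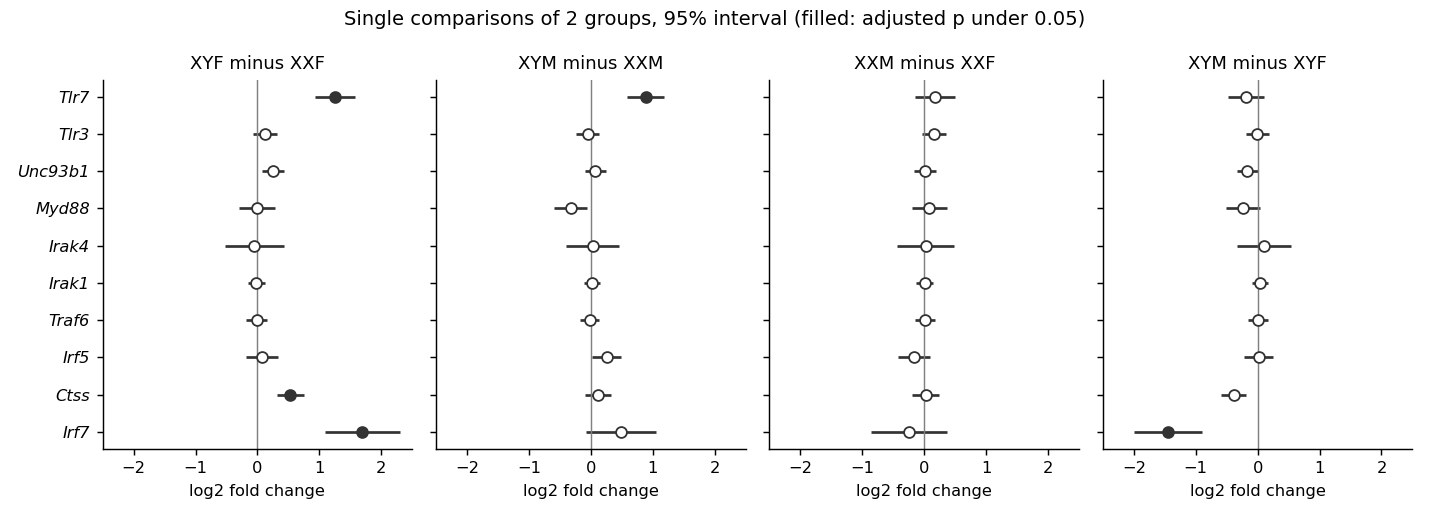
Log2 fold change with its 95% interval (horizontal axis) of the 8 genes, Ctss and Irf7 in 4 comparisons of 2 groups, with filled points for an adjusted p under 0.05. Tlr7 is filled in both comparisons of XY with XX (1.25 and 0.88), Ctss and Irf7 in XYF minus XXF, and Irf7 in XYM minus XYF.

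Whether the 8 genes varied together from mouse to mouse was read from the deviation of each library from its group mean on the log2 CPM scale. There were 44 relations, 28 between members and 16 of a member with the microglia or interferon score, which is the mean log2 CPM of the markers other than the members (and other than Ctss for microglia). By permutation within groups, none passed an adjusted p of 0.05, and 4 had an unadjusted p under 0.05. The 28 pairs of members had r between -0.303 and 0.579 with a median of 0.00687.

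The highest of these pairs was Tlr7 with Tlr3 (r = 0.579, n = 23, permutation p = 0.00579, adjusted p = 0.155). Spearman's rho was 0.524 (permutation p = 0.02, adjusted p = 0.469). Without the 2 libraries farthest from the median of Tlr7 over all groups, XXF replicate 1 and XXM replicate 2, r was 0.535. Such libraries were picked on level, here and below, and not on deviation from the group mean. XXM replicate 3 and XYF replicate 2 stayed in, so this r cannot tell whether the relation rests on them. Leaving out each library in turn gave r from 0.477 to 0.637. Within groups r was 0.88 in XXM, 0.685 in XYF and 0.212 in XYM, each over 6 libraries, and none is given for XXF, which has 5. XXM replicate 3, at 25.6 CPM of Tlr3, and XYF replicate 2, at 22.5 CPM, were the highest libraries of their groups for both receptors.

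The relation of Tlr7 with the microglia score had r = 0.585 (permutation p = 0.0106, adjusted p = 0.155) and rho = 0.501 (permutation p = 0.0303, adjusted p = 0.469). Without the same 2 libraries r was 0.595, but XYM replicate 3, with the largest deviation in both, stayed in. Leaving out each library in turn gave r from 0.447 to 0.675. In the groups of 6 libraries r was 0.0339 in XXM, 0.573 in XYF and 0.886 in XYM. With the interferon score r was 0.292 (permutation p = 0.265, adjusted p = 0.743) and rho was 0.374 (permutation p = 0.109, adjusted p = 0.628).

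The highest r of all 44 relations was that of Unc93b1 with the interferon score, at 0.598 (permutation p = 0.00788, adjusted p = 0.155), with a rho of 0.438 (permutation p = 0.0522, adjusted p = 0.469) and an r of 0.521 without the 2 farthest libraries. XYM replicate 1 was the highest library of its group in both, and was not 1 of the 2 left out. Irak1 with Traf6 had r = 0.4 (permutation p = 0.0484, adjusted p = 0.532) and 0.248 without the 2 farthest libraries. Tlr7 with its adaptor Myd88 had r = 0.116 (permutation p = 0.591, adjusted p = 0.788), and with Unc93b1 r = -0.0332 (permutation p = 0.897, adjusted p = 0.937). Its r with Irak1, Irak4, Traf6 and Irf5 lay between -0.233 and 0.174.

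**Figure D5:**
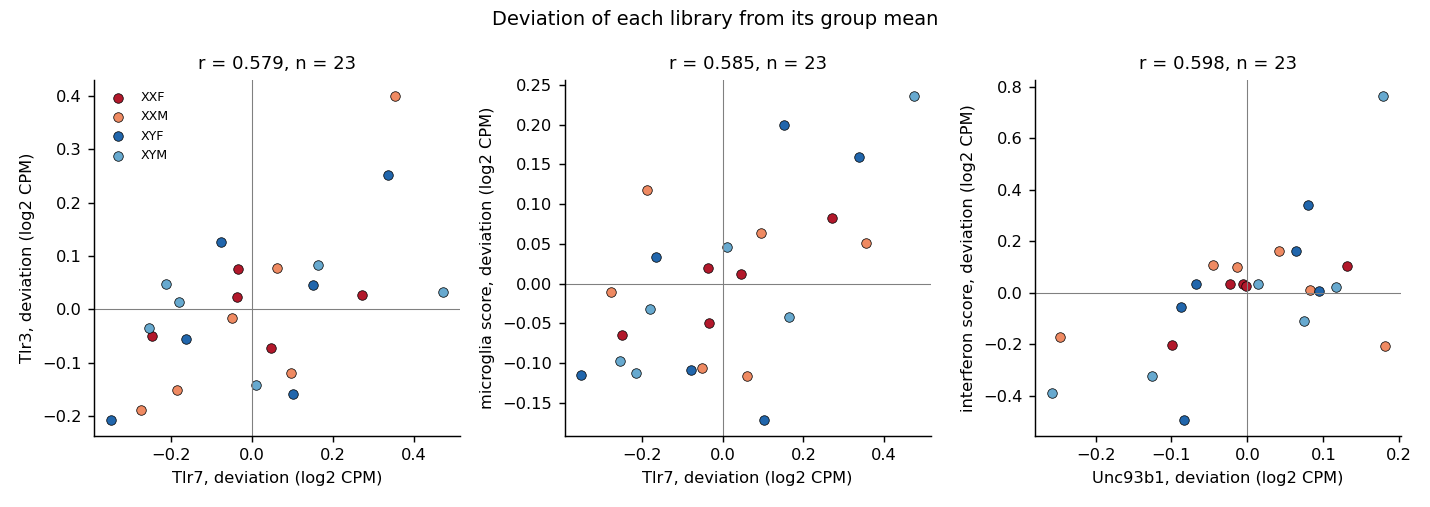
Deviation of each library (points, coloured by group) from its group mean in log2 CPM, for Tlr7 against Tlr3, Tlr7 against the microglia score and Unc93b1 against the interferon score. The r in the panels is 0.579, 0.585 and 0.598 over 23 libraries, with an adjusted permutation p of 0.155 in all 3.

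Over the whole table the genes whose deviations were most like those of Tlr7 included 2700029M09Rik (r = 0.86), Paics (0.82), an enzyme of purine synthesis, Fam86 (0.775) and Calu (0.773), a calcium-binding protein of the secretory pathway. Each r is over the 23 libraries, ranks among the highest of the whole table and is given as a description with no test. None of these 4 is a member, a microglial marker or an interferon gene.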

How the data were processed

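RNA of 23 hippocampi was sequenced after ribosomal RNA depletion with stranded libraries and paired 100-base reads, per the labels' protocols and the design text. The authors deposited estimated counts per gene, which need not be whole and were rounded here, and normalized values on a log2 scale, used for an alternative fit. Per the file headers, genes were kept at a raw value of 20 or more in all libraries of at least 1 group, which leaves genes low in all groups out of the table. DESeq and mm10 are named in the submitters' processing notes. For aligner, counter and use of strand, names were not given in the sources used here. Overlapping and antisense genes are therefore not told apart.

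Tests used edgeR 4.0.16 (quasi-likelihood, TMM, filterByExpr, which removed 0 of 13766 genes) in R 4.3.3, with a mean for each of 4 groups and Benjamini-Hochberg adjustment over all genes at 0.05, 2-sided. SE are approximate, from dividing the log2 fold change by the root of F. The p-values of these tests weigh group differences against the spread between these animals. CPM used TMM-scaled totals. Log2 CPM used a prior count of 2. Exon lengths came from GENCODE (GRCm38). Correlations used 100000 permutations of libraries within groups, adjusted over 44 relations. Alternatives were DESeq2 1.42.0, limma 3.58.1 (voom, and on the deposited log2 values), total count scaling, 2 filters, microglia or choroid plexus scores as covariates, and leaving out each library. The code was tested on simulated data.

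The members and lists were chosen with earlier results of these data known. Named were the 8 members, pathway genes called in any comparison, the 3 others with the smallest p in each main effect, the distal X genes, the 5 genes most like Tlr7 by either measure (1 is not reported here), and the relations of Tlr7. Other genes were named to complete a role group, after their values were seen. Groups came from the labels for sex chromosome and gonad.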

Additional observations from a re-analysis of the deposited data

Results flagged for a closer look

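Irak4 in XYF replicate 1 stood at 2.48 CPM, far above the other 5 XYF libraries, which lay between 1.04 and 1.52 CPM, from a gap that exceeded Dixon's 95% limit for a group of 6. It was the 1 case among 40 combinations of gene and group examined (the 8 members, Ctss and Irf7 in 4 groups). Chance alone marks about 1 in 20 groups. Irak4 rests on few counts, from 13 to 64.3 per library.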

How the results depend on the processing

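The sex chromosome effect on Tlr7 stayed past the threshold in all 8 other fits (1.03 to 1.08) and without each library in turn (1.01 to 1.11). The number of genes called in the sex chromosome effect was 60 in DESeq2 and 64 after adding the choroid plexus score, and 34 to 48 without each library. In the gonad effect it was 98 in DESeq2, 44 with the choroid plexus score, and 17 to 85 without each library (85 without XXF replicate 5, 42 without XYF replicate 1, 34 without XYF replicate 5 and 49 without XYM replicate 1). In the interaction it was 0 to 3 (1 without XYF replicate 1 and 3 without XYM replicate 1). Without each library it was 32 to 51 in XYF against XXF, 15 to 17 in XYM against XXM and 0 in XXM against XXF, and over the other fits 35 to 58, 15 to 21 and 0 to 1 (58, 21 and 1 in DESeq2). In XYM against XYF it was 47 in DESeq2, 4 with the microglia score, and 19 to 50 without each library (20 without XYF replicate 2 or XYM replicate 2, 19 without XYM replicate 4, 5 or 6, and 50 without XYM replicate 1). Of the correlations 0 to 1 passed without each library, the 1 without XXM replicate 6.

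Effects near 0 that changed sign were all without a call. With the microglia score they were the gonad effects on Tlr7 (0.118), Irak1 (-0.00196), Irak4 (-0.0631) and Traf6 (-0.0133), the XYM minus XYF difference of Tlr7 (0.0478) and the sex chromosome effects on Irak1 (0.00533) and Irak4 (0.0192). With the choroid plexus score they were the sex chromosome effects on Irak1 (0.0262), Irak4 (0.0339) and Traf6 (0.0109) and the gonad effect on Traf6 (-0.0161). With limma they were Irak1 (0.00339 with voom, 8.13e-04 on the deposited values) and Irak4 (0.00271 on the deposited values). Without each library the ranges were -0.0637 to 0.0314 (Tlr7, gonad), -0.0216 to 0.0278 (Irak1, sex chromosomes), -0.122 to 0.0486 (Irak4, sex chromosomes), -0.0400 to 0.0127 and -0.0199 to 0.0283 (Traf6, sex chromosomes and gonad), and -0.0112 to 0.0590 (Ctss, XXM minus XXF). The r of Tlr7 with Myd88 was -0.00431 without the 2 farthest libraries and that with Irak4 was 0.0292 with the microglia score removed. Without each library r was -0.210 to 0.0404 with Unc93b1, -0.0114 to 0.241 with Myd88 and -0.312 to 0.00437 with Irak4. The differences printed were narrowed after the values were seen: of 32 further member differences in single comparisons and interactions, 20 changed sign in at least 1 of the alternatives and none changed its call. The cause of these changes was not tested. No paired analysis was possible because the replicate numbers follow accession order and only name libraries. Irak4, at 13 to 64.3 estimated counts per library, had the widest interval of the members in the sex chromosome effect.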
